A study of Homo sapiens with 9 samples.

Results

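The RNA-seq counts were read here for the genes that build and trim glycans in the Golgi. The set holds the protein-coding genes whose symbols begin with GALNT, ST3GAL, ST6GAL, ST6GALNAC, ST8SIA, B3GNT, B3GALT, B4GALT, FUT, GCNT or MGAT followed by a number, together with the mannosidases *MAN1A1*, *MAN1A2*, *MAN1C1*, *MAN2A1* and *MAN2A2* and with *PGAP4*. Members were taken by symbol, under a rule set with earlier results of these data known. Of the 60660 gene identifiers in the count matrix, 90 met the rule.

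Most proteins that pass through the secretory pathway leave it carrying sugar chains. N-glycans reach the Golgi as mannose-rich chains, where mannosidases trim them and the MGAT enzymes add branches. Mucin-type O-glycans are begun on serine or threonine by the GALNT enzymes and branched by the GCNT enzymes. The B4GALT, B3GALT and B3GNT enzymes then lengthen the chains, the FUT enzymes add fucose, and the ST3GAL, ST6GAL, ST6GALNAC and ST8SIA enzymes end them with sialic acid. Epithelial and ovarian cancers are known for altered forms of these chains, and the tumor marker CA125 is carried on MUC16, a heavily glycosylated mucin.

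The cells were OVCAR3, an epithelial ovarian cancer line, and 3 biological replicates were sequenced for each of 3 conditions. Control cells carried a LacZ plasmid, according to the study's methods. CTCFL-OE cells (OE) received 2 µg of a pCpGfree plasmid with the open reading frame of *CTCFL*, the paralog of *CTCF* also named *BORIS*, and were harvested after 48 h. In CTCFL-KD cells (KD), *CTCFL* was lowered with siRNAs. The KD RNA came from earlier knockdown experiments, yet it was compared with the same Control libraries, so that the knockdown cannot be told apart from whatever else differed between the experiments, siRNA against plasmid included. Transfection was transient and a single cell line was used.

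Total counts lay between 17249451 and 24490080 in Control and OE and between 14332622 and 17995196 in KD. The counts of *CTCFL* were 6, 9 and 10 in Control, 36, 34 and 72 in OE and 0, 1 and 0 in KD, so the groups did not overlap and followed their labels. All 8 markers of the line that were looked up, among them *PAX8*, *WT1*, *EPCAM* and *MUC16*, were detected in each library. Their summed level was 5628 to 5735 CPM (counts scaled to a common library size, as a rate per 1000000 counts) in Control, 4463 to 5216 in OE and 9229 to 15860 in KD. Within the list, *KRT7* (log2 fold change -1.12, adjusted p = 0.0164) and *WT1* (-0.63, adjusted p = 0.0272) were lower in KD than in Control, while *MUC16* (2.84), *KRT18* (1.76), *EPCAM* (1.18) and *KRT19* (0.91) and also *KRT8* (adjusted p = 0.00431) were higher. Of 6 fibroblast markers, *COL1A1* had the most counts, with 639, 794 and 522 in Control and 289, 377 and 389 in KD. *COL1A2* had counts of 0, 0 and 0 in Control and of 156, 239 and 247 in KD. *COL3A1* had no count in Control or OE and 8, 9 and 8 in KD, and *DCN* had at most 4 counts in any library. The whole list summed to 26.7 to 32.5 CPM in Control, 23.8 to 43.3 in OE and 35.9 to 41.3 in KD. The 3 leukocyte markers summed to at most 0.491 CPM in any library, and the 3 endothelial markers to 6.78 to 7.05 CPM in Control, 8.22 to 10.3 in OE and 4.48 to 5.28 in KD. KD replicate 1 stood apart, with the lowest total, the lowest scaling factor (0.775) and a fold change that fell with transcript length against the other libraries of its group (rank correlation across genes of -0.511). Mitochondrial genes took 6.16% to 6.52% of counts in Control, 7.40% to 14.9% in OE and 7.80% to 11.8% in KD. What part these differences have in the results below was not tested.

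Of the 90 members, 73 had enough counts to be tested. The other 17 never exceeded 14 counts in a library, and 4 of them (*FUT7*, *GALNT8*, *GALNT9* and *ST8SIA3*) had no count at all, which allows up to 3 counts per library. Of the tested members, 7 reached the minimum only through the KD libraries, namely *B3GALT2*, *FUT3*, *MAN1A1*, *PGAP4*, *ST6GALNAC3*, *ST6GALNAC5* and *ST8SIA5*. For these, being tested and being higher in KD are not independent. *GCNT4* in turn had too few counts to be tested in the fits of the KD and OE libraries alone. Its test rested on Control, so that being tested and being lower in KD are not independent for it. Levels are given as CPM after scaling of the libraries by TMM, with the mean ± SD of n = 3, and fold changes as log2 with their standard error (SE). Adjusted p-values are those of the quasi-likelihood test of edgeR, adjusted by the Benjamini-Hochberg procedure over all 17794 genes tested. A member passed the test with an adjusted p under 0.05 (under 0.1 in OE) and counted as a differentially expressed gene (DEG) when it also changed by more than 2-fold.

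The values of 5 members span the largest differences between KD and Control, and the sequence before their starts is given for this reason. *MAN1A1*, *PGAP4* and *ST6GALNAC3* are the tested members with at most 1 count in every Control and OE library, and *ST6GALNAC5* and *GCNT3* have the next largest fold changes. They were picked after their values were seen. Each line gives the 250 bases upstream of the start of the canonical transcript, 5′ to 3′ along the gene, from RefSeq on GRCh38.p14, with CG dinucleotides in capitals.
MAN1A1, chr6:119349762-119350011, minus strand: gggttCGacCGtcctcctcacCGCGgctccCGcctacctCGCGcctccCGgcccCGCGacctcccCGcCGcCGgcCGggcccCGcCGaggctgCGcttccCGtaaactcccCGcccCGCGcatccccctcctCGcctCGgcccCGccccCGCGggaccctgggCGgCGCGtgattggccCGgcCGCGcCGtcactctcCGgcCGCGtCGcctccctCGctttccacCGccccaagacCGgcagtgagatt
PGAP4, chr9:101487174-101487423, minus strand: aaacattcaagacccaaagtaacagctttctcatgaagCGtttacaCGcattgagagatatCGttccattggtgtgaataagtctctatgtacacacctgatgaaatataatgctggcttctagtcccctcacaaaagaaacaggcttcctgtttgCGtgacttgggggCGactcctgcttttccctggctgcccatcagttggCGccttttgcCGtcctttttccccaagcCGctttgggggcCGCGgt
ST6GALNAC3, chr1:76074496-76074745, plus strand: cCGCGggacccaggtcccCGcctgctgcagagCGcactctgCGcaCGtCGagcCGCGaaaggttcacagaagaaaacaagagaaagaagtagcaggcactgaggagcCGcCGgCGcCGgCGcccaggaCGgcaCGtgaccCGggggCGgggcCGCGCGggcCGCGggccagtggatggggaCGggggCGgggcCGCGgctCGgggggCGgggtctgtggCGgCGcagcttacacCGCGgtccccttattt
ST6GALNAC5, chr1:76867230-76867479, plus strand: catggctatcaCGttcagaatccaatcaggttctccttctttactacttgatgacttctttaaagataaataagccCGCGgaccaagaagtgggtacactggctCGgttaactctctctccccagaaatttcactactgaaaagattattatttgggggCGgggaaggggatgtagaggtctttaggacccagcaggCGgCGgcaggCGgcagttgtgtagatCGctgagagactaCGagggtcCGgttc
GCNT3, chr15:59611533-59611782, plus strand: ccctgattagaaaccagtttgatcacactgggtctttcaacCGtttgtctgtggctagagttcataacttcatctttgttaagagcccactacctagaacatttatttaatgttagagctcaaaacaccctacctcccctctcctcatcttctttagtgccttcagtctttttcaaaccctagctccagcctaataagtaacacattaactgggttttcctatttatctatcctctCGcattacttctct
These stretches differed widely in composition. The *MAN1A1* stretch held 40 CG dinucleotides at 78.4% G and C and the *ST6GALNAC3* stretch 33 at 73.2%. The stretches of *ST6GALNAC5* and *PGAP4* held 11 and 10, at 49.6% and 49.2%, and that of *GCNT3* held 2 at 40.4%. DNA methylation was not measured in these samples. The string AGGGGGC, a form of the core of the CTCF motif, was searched on both strands of RefSeq promoters. These ran from 250 bases before to 50 after a start. The string was in none of the 5 stretches, but other forms of the motif were not searched. Its absence therefore does not show that a CTCF or CTCFL site is absent. The paper used the CTCFL motifs of Jaspar and Factorbook for its own search. It was found in 14.6% of the 48 promoters of members higher in KD and in 14.9% of the 47 of tested members that were not DEGs. Each of these sets covers 27 genes, and some genes have several promoters. Several promoters with the string are overlapping ones of *ST3GAL5*. The string was in 19.2% of the promoters of all protein-coding genes tested and in 14.4% of all 35116 promoters. RefSeq promoters were matched for 66 of the 90 members.

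The comparison of KD with Control asks what a lowered *CTCFL* level does to these genes. In such bulk RNA, fewer cells that express a gene and less RNA of it per cell cannot be told apart. Many members rose in KD, and DEGs higher in KD were found in each role group, though not in each family beyond the share of all genes. Of the 73 tested, 34 were DEGs higher in KD and 1, *GCNT4*, was a DEG lower in KD, beside 15.3% and 7.94% of all genes tested. The 34 are 46.6% of the tested members. Among protein-coding genes alone the shares were 16.2% and 7.63%. Counting by the adjusted p alone, 39 members passed as higher and 2 as lower, where 21.4% and 16.8% of all genes did. The median log2 fold change was 0.92 over the tested members and 0.077 over all genes tested. Without the 7 members that were tested only through KD, 27 of 66 were DEGs higher in KD (40.9%), with a median of 0.72. Without KD replicate 1, 36 members were DEGs higher in KD and 1 lower.

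All 3 KD libraries lay above all 3 Control libraries in 48 tested members (65.8%) and below them in 4 (5.48%), beside 28.7% and 27.6% of all genes tested. The summed CPM of all members was 2492, 2477 and 2613 in the Control libraries, 2396, 2592 and 3680 in OE and 3439, 4121 and 4298 in KD. The KD sums lay above all Control sums, while OE replicate 3 reached above the lowest KD library. KD replicate 1 was the lowest of the KD libraries in 45 of the 73 tested members (61.6%), beside 46.2% of all genes tested.

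**Figure D1:**
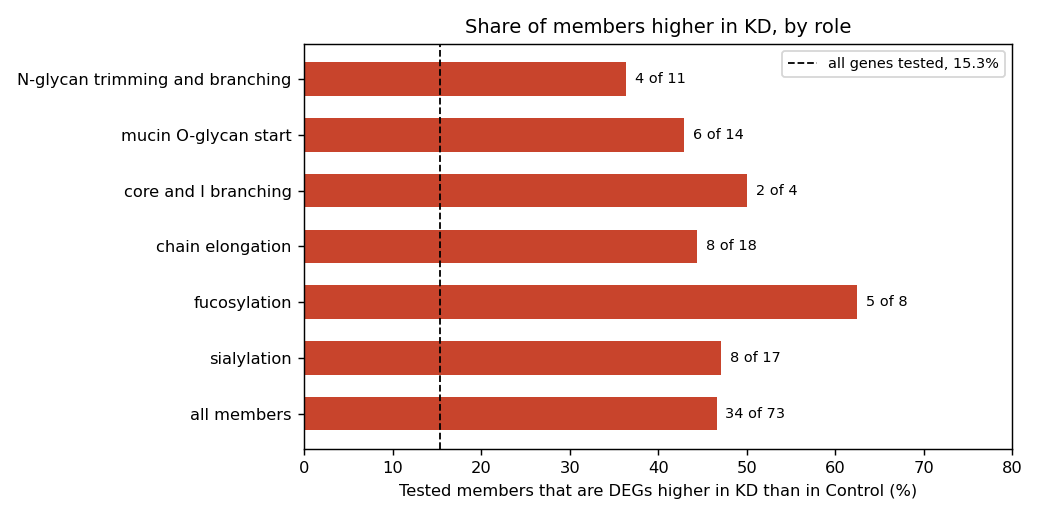
Percent of tested members that were DEGs higher in KD than in Control (horizontal axis), for each role group of more than 1 gene and for all members (bars, with the counts beside them). The dashed line marks the 15.3% of all genes tested, and the bars run from 36.4% for N-glycan trimming and branching to 62.5% for fucosylation. They include the members tested only through KD, without which N-glycan trimming and branching is at 3 of 10, chain elongation at 7 of 17, fucosylation at 4 of 7 and sialylation at 5 of 14.

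Among the 14 genes of N-glycan trimming and branching, 11 were tested, 5 passed as higher in KD and 4 of these were DEGs. Without *MAN1A1*, which was tested only through KD, 3 of 10 were. The MGAT genes gave 2 DEGs of 7 (28.6%), beside 15.3% of all genes tested. *MAN1A1*, a Golgi mannosidase that trims mannose-rich N-glycans, was nearly silent in Control with counts of 0, 1 and 0, and in OE with 0, 0 and 1. Its KD counts were 126, 449 and 537, or 22.4 ± 9.71 CPM. The groups were far apart, although KD replicate 1 held less than the other KD libraries. The ratio of KD to Control was 1576, with an exact 95% interval for counting error of 282 to 62310, and the adjusted p was 4.70e-06. On the opposite strand of *MAN1A1* lies a gene with at most 4 counts in any library. *MAN1A2* had 115 ± 7.67 CPM in Control and 152 ± 47.3 in KD (adjusted p = 0.237). It did not pass, but did without KD replicate 1 (log2 fold change 0.64, adjusted p = 0.0102). *MAN1C1* was not tested. Its counts were 0, 1 and 2 in Control and 1, 10 and 6 in KD, a ratio of 8.03 with an exact 95% interval for counting error of 2.32 to 42.8.

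*MAN2A2*, a mannosidase of the later trimming step, rose from counts of 150, 204 and 139 in Control to 173, 495 and 555 in KD. This is 7.48 ± 0.443 CPM against 25.1 ± 8.26, with a log2 fold change of 1.75 (SE 0.28, adjusted p = 0.000793). Its relative *MAN2A1* had a log2 fold change of 0.56 (adjusted p = 0.134) and passed without KD replicate 1 (0.84, adjusted p = 0.00231). *MGAT1*, which adds the first N-acetylglucosamine toward hybrid and complex chains, had 78.0 ± 4.04 CPM in Control and 165 ± 4.37 in KD (log2 fold change 1.08, SE 0.19, adjusted p = 0.00116). *MGAT1* was under 2-fold with offsets for length and GC content, alone (0.94) or with the replicate block (0.94). *MGAT5*, known for the branched N-glycans of metastatic cells, went from 107 ± 6.87 to 235 ± 25.02 CPM, at a log2 fold change of 1.14 (SE 0.24, adjusted p = 0.00409). *MGAT5B* passed below 2-fold, with a log2 fold change of 0.92. *MGAT2*, *MGAT3*, *MGAT4A* and *MGAT4B* did not pass. *MGAT4B*, the most abundant of the group per kb of transcript, had 154 ± 9.96 CPM in Control and 138 ± 40.8 in KD. It overlaps *SQSTM1* on the opposite strand, which had 5848 to 7609 counts in Control and 1027 to 1764 in KD, so its value is uncertain if reads were counted without strand.

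**Figure D2:**
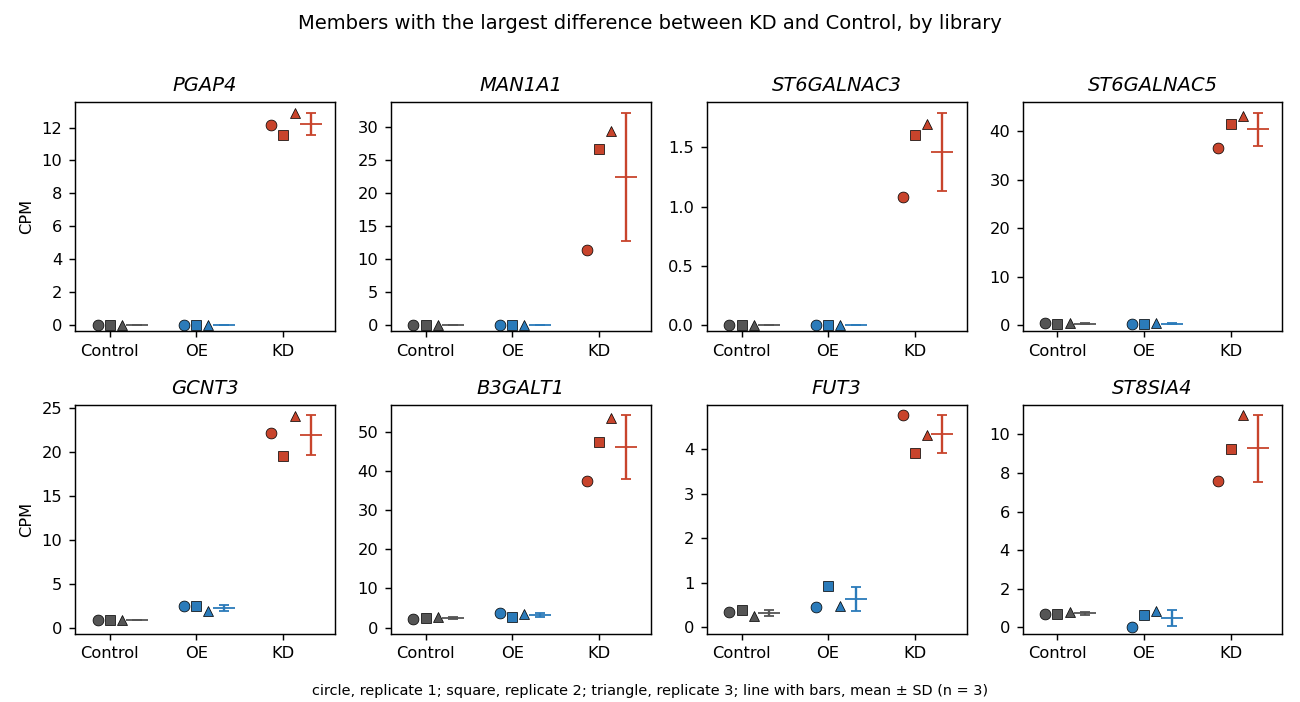
CPM (vertical axes, linear) in each library of the 8 members with the largest fitted difference between KD and Control, with the mean ± SD (n = 3) beside the points. In all 8 panels the KD libraries lie above every Control and OE library, and *MAN1A1* shows the widest spread within KD, from 11.4 to 29.4 CPM. The choice by size of the KD difference favours such separation. *MAN1A1*, *PGAP4*, *ST6GALNAC3*, *ST6GALNAC5* and *FUT3* were also tested only through KD.

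*PGAP4* adds a sugar side chain to the GPI anchors that hold proteins to the cell surface. No read was counted for it in the 6 Control and OE libraries, and 135, 195 and 236 were counted in KD. At 12.2 ± 0.667 CPM, KD was at least 87.6-fold higher than Control and at least 76.8-fold higher than OE, with a floor of 3 counts in each library (adjusted p = 1.21e-05 against Control). The antisense gene *TMEM246-AS1* that overlaps it had no counts.

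Mucin-type O-glycosylation is begun by the 18 GALNT genes, of which 14 were tested, 7 passed as higher in KD and 6 were DEGs. The 6 are 42.9% of those tested, beside 15.3% of all genes tested. *GALNT17* rose the most. Its counts were 183, 244 and 186 in Control and 626, 846 and 908 in KD, with no overlap. The log2 fold change was 2.48 (SE 0.19, adjusted p = 7.06e-06). *GALNT12* went from 1.50 ± 0.208 to 6.59 ± 1.07 CPM, with a log2 fold change of 2.13 (SE 0.24, adjusted p = 8.50e-05). *GALNT16* went from 0.664 ± 0.184 to 2.40 ± 0.268 CPM, with a log2 fold change of 1.83 (SE 0.32, adjusted p = 0.00145).

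*GALNT2* went from 176 ± 5.23 to 371 ± 93.1 CPM, at a log2 fold change of 1.07 (SE 0.27, adjusted p = 0.00940). It fell just under 2-fold without KD replicate 2 (0.98) or KD replicate 3 (0.96) and with offsets for length and GC content (0.96, or 0.93 with the replicate block). *GALNT3* had 126 ± 4.58 CPM in Control, and its KD libraries held 126, 325 and 320. The KD and Control libraries of *GALNT3* therefore overlap, and its log2 fold change of 1.02 (SE 0.33, adjusted p = 0.0294) became 0.94 with the replicate number as a block, under 2-fold. It did not pass without any 1 of the 3 Control libraries, KD replicate 2 or KD replicate 3, where adjusted p was 0.0793 to 0.0928. *GALNT5* had 13 to 22 counts in Control and 15 to 35 in KD, a log2 fold change of 1.04 (adjusted p = 0.0243), and did not pass without KD replicate 3 or any 1 Control library (adjusted p 0.0629 to 0.0981). *GALNT18* passed below 2-fold with 0.92, but not without any 1 Control library (adjusted p 0.0560 to 0.0680). *GALNT7*, with 122 ± 2.81 CPM in Control and 129 ± 51.9 in KD, *GALNT1* and *GALNT6* did not pass. *GALNT6* did below 2-fold in some alternatives, as with edgeR on the 6 libraries compared (0.61, adjusted p = 0.0131) and DESeq2 on all 9 (0.59, adjusted p = 0.0411).

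The GCNT genes, which add branches to O-glycans and to lactosamine chains, held both directions. *GCNT3*, a mucin-type branching enzyme of epithelia, had counts of 18, 23 and 17 in Control, 53, 46 and 30 in OE and 246, 328 and 439 in KD. The 3 groups did not overlap. In KD this is 21.9 ± 2.28 CPM against 0.884 ± 0.0214 in Control, a log2 fold change of 4.62 (SE 0.22, adjusted p = 7.21e-07). *GCNT1*, which makes the core 2 branch, went from 27.1 ± 1.27 to 54.9 ± 16.1 CPM. Its log2 fold change of 1.02 (SE 0.25, adjusted p = 0.00872) became 0.97 with the replicate number as a block, and lay between 0.81 and 0.99 without Control replicate 1 or 2 or KD replicate 2 or 3. *GCNT4* fell, from counts of 23, 16 and 18 in Control to 1, 7 and 6 in KD. Its log2 fold change was -1.55 (SE 0.45, adjusted p = 0.0199) and it did not pass without Control replicate 1 (adjusted p = 0.0777) or Control replicate 3 (0.0556). *GCNT2*, the I-branching enzyme, had a log2 fold change of -0.26 and did not pass (adjusted p = 0.324).

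Chain elongation is the work of 21 genes, of which 18 were tested, 9 passed as higher in KD and 8 were DEGs (7 of 17 without *B3GALT2*). Of the B3GALT genes, 4 of 5 tested members were DEGs, or 3 of 4 without *B3GALT2*, which was tested only through KD. The share of all genes tested was 15.3%. *B3GALT1*, which adds galactose to make type 1 chains, had counts of 42, 60 and 53 in Control and 416, 798 and 980 in KD. Its log2 fold change was 4.28 (SE 0.22, adjusted p = 1.13e-06). A gene without a symbol that overlaps it on the same strand had 8 to 14 counts in Control and 14 to 59 in KD, so that reads may be split between them. *B3GALT2* went from 0.353 ± 0.152 to 1.98 ± 0.973 CPM, with a log2 fold change of 2.48 (SE 0.49, adjusted p = 0.00291). *CDC73*, on the opposite strand at *B3GALT2*, had 1059 to 1242 counts in Control and 200 to 763 in KD. *B3GALT4*, a ganglioside enzyme, had counts of 13, 18 and 16 in Control and 92, 79 and 83 in KD, with a log2 fold change of 3.0 (SE 0.34, adjusted p = 9.24e-05). *B3GALT6*, which helps to build the linker of glycosaminoglycans, went from 57.1 ± 3.65 to 211 ± 105 CPM, with a log2 fold change of 1.88 (SE 0.32, adjusted p = 0.00111). KD replicate 1 gave 332 CPM of *B3GALT6*, above the 153 and 149 of the other KD libraries, and each KD library lay above all Control libraries. *B3GALT5*, another type 1 chain enzyme, was not tested. It had no count in Control or OE and 5, 6 and 11 in KD, at least 3.37-fold higher than Control.

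Of the B3GNT genes, 3 of 6 tested members were DEGs. *B3GNT9* rose from counts of 26, 29 and 23 in Control to 74, 238 and 196 in KD, with a log2 fold change of 3.14 (SE 0.30, adjusted p = 3.61e-05). *PHAF1*, on the opposite strand at this place, had 409 to 621 counts in Control and 161 to 355 in KD. *B3GNT2*, the main enzyme of polylactosamine chains, and *B3GNT3*, which extends O-glycans, had log2 fold changes of 1.17 (adjusted p = 0.00357) and 1.14 (adjusted p = 0.00105). With the offsets for length and GC content, alone or with the replicate block, *B3GNT3* was just under 2-fold (0.99 and 0.98). The B4GALT genes, which add galactose to make lactosamine, gave 1 DEG of 7 (14.3%), beside 15.3% of all genes tested. This was *B4GALT3*, from 31.2 ± 0.663 to 87.3 ± 23.6 CPM (log2 fold change 1.48, SE 0.23, adjusted p = 0.000634). *B4GALT7*, of the glycosaminoglycan linker, passed below 2-fold with 0.99. *B4GALT1* had 348 ± 10.9 CPM in Control and 290 ± 67.0 in KD (adjusted p = 0.411), and *B4GALT5* had 346 ± 14.6 and 344 ± 76.0 (adjusted p = 0.986).

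Of the 11 fucosyltransferase genes, 8 were tested, 6 passed as higher in KD and 5 were DEGs. Without *FUT3*, which was tested only through KD, 4 of 7 were, beside 15.3% of all genes tested. *FUT3*, the Lewis enzyme, had counts of 7, 10 and 5 in Control, 10, 18 and 8 in OE and 53, 66 and 79 in KD. Its KD libraries lay above all others, with a log2 fold change of 3.67 (SE 0.33, adjusted p = 2.12e-05). *FUT11* went from 8.38 ± 1.33 to 29.3 ± 5.72 CPM (log2 fold change 1.80, SE 0.24, adjusted p = 0.000280). *FUT1*, which makes the H antigen, went from 4.39 ± 0.920 to 14.7 ± 3.08 CPM (1.74, SE 0.28, adjusted p = 0.000918). *FUT4*, which makes Lewis x, went from 2.19 ± 0.484 to 6.31 ± 1.73 CPM (1.54, SE 0.26, adjusted p = 0.00124). *FUT2*, the secretor enzyme, rested on 6 to 9 counts in Control and 7 to 17 in KD. Its log2 fold change of 1.08 (adjusted p = 0.0394) did not pass with the replicate block (adjusted p = 0.0699), nor in 7 of the 9 fits that left out 1 library (adjusted p 0.0515 to 0.156), those without any 1 Control library, OE replicate 2 or 3, or KD replicate 2 or 3. *FUT10* passed below 2-fold with 0.72, but in 7 of the 9 fits that left out 1 library it did not (adjusted p 0.0515 to 0.121), those without any 1 Control library, OE replicate 2 or 3, or KD replicate 2 or 3. *FUT8*, which adds the core fucose of N-glycans and was the most abundant of the group per kb, had 91.0 ± 2.24 CPM in Control and 107 ± 24.5 in KD (adjusted p = 0.414), and *FUT9* had 13.2 ± 1.73 and 11.1 ± 4.82 (adjusted p = 0.535).

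Of the 20 sialyltransferase genes, 17 were tested, 9 passed as higher in KD and 1 as lower, and 8 of these were DEGs. Without *ST6GALNAC3*, *ST6GALNAC5* and *ST8SIA5*, which were tested only through KD, 5 of 14 were DEGs. The ST6GALNAC genes, which add sialic acid to N-acetylgalactosamine of O-glycans or gangliosides, gave 4 DEGs of 5 tested, or 2 of 3 without *ST6GALNAC3* and *ST6GALNAC5*. The ST3GAL genes gave 1 DEG of 6 (16.7%), beside 15.3% of all genes tested. *ST6GALNAC5* had counts of 6, 4 and 8 in Control, 3, 5 and 8 in OE and 407, 700 and 790 in KD. The Control and OE counts overlap, and the KD libraries were far above both. The level went from 0.287 ± 0.125 to 40.5 ± 3.40 CPM, at a log2 fold change of 7.16 (SE 0.35, adjusted p = 8.68e-07). *ST6GALNAC3* had no counts in Control or OE and 12, 27 and 31 in KD, at least 10.5-fold higher than Control (adjusted p = 0.000397).

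*ST6GALNAC1*, which makes the tumor antigen sialyl-Tn, had 12.2 ± 0.742 CPM in Control and 73.5 ± 6.57 in KD (log2 fold change 2.59, SE 0.18, adjusted p = 4.36e-06). *ST6GALNAC2* had counts of 80, 113 and 88 in Control and 102, 469 and 551 in KD (2.39, SE 0.38, adjusted p = 0.000808). A same-strand neighbour without a symbol overlaps *ST6GALNAC2* and had 14 to 22 counts in Control and 19 to 70 in KD. *ST8SIA4*, one of the polysialic acid synthases, had counts of 14, 18 and 16 in Control, 1, 12 and 14 in OE and 84, 156 and 201 in KD (3.65, SE 0.47, adjusted p = 0.000221), whereas the other, *ST8SIA2*, had 1.36 ± 0.255 CPM in Control and 1.50 ± 0.0297 in KD (adjusted p = 0.803). *ST8SIA5*, of ganglioside synthesis, rested on 2 to 5 counts in Control and 12 to 28 in KD (3.05, SE 0.41, adjusted p = 0.000286).

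*ST6GAL1*, which caps N-glycans with sialic acid, went from 29.0 ± 2.96 to 89.2 ± 22.3 CPM (log2 fold change 1.62, SE 0.26, adjusted p = 0.000918), and *ST6GAL2* passed below 2-fold with 0.95. Without any 1 Control library, KD replicate 2 or KD replicate 3, *ST6GAL2* did not pass (adjusted p 0.0793 to 0.0935). *ST3GAL5*, the GM3 synthase from which most gangliosides derive, went from 1.91 ± 0.291 to 5.31 ± 0.380 CPM (1.47, SE 0.24, adjusted p = 0.000982). *ST3GAL6* passed in the other direction, with counts of 109, 131 and 107 in Control and 36, 48 and 54 in KD. The log2 fold change of *ST3GAL6* was -0.82 (SE 0.21, adjusted p = 0.00959), below 2-fold, and it did not pass with offsets for length and GC content (-0.52, adjusted p = 0.0867). *DCBLD2*, which overlaps *ST3GAL6* on the opposite strand, had 13315 to 15899 counts in Control and 4550 to 11815 in KD. *ST3GAL2* had 27.7 ± 1.01 CPM in Control and 31.6 ± 1.20 in KD (adjusted p = 0.374), and *ST3GAL1*, *ST3GAL3* and *ST3GAL4* did not pass either.

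**Figure D3:**
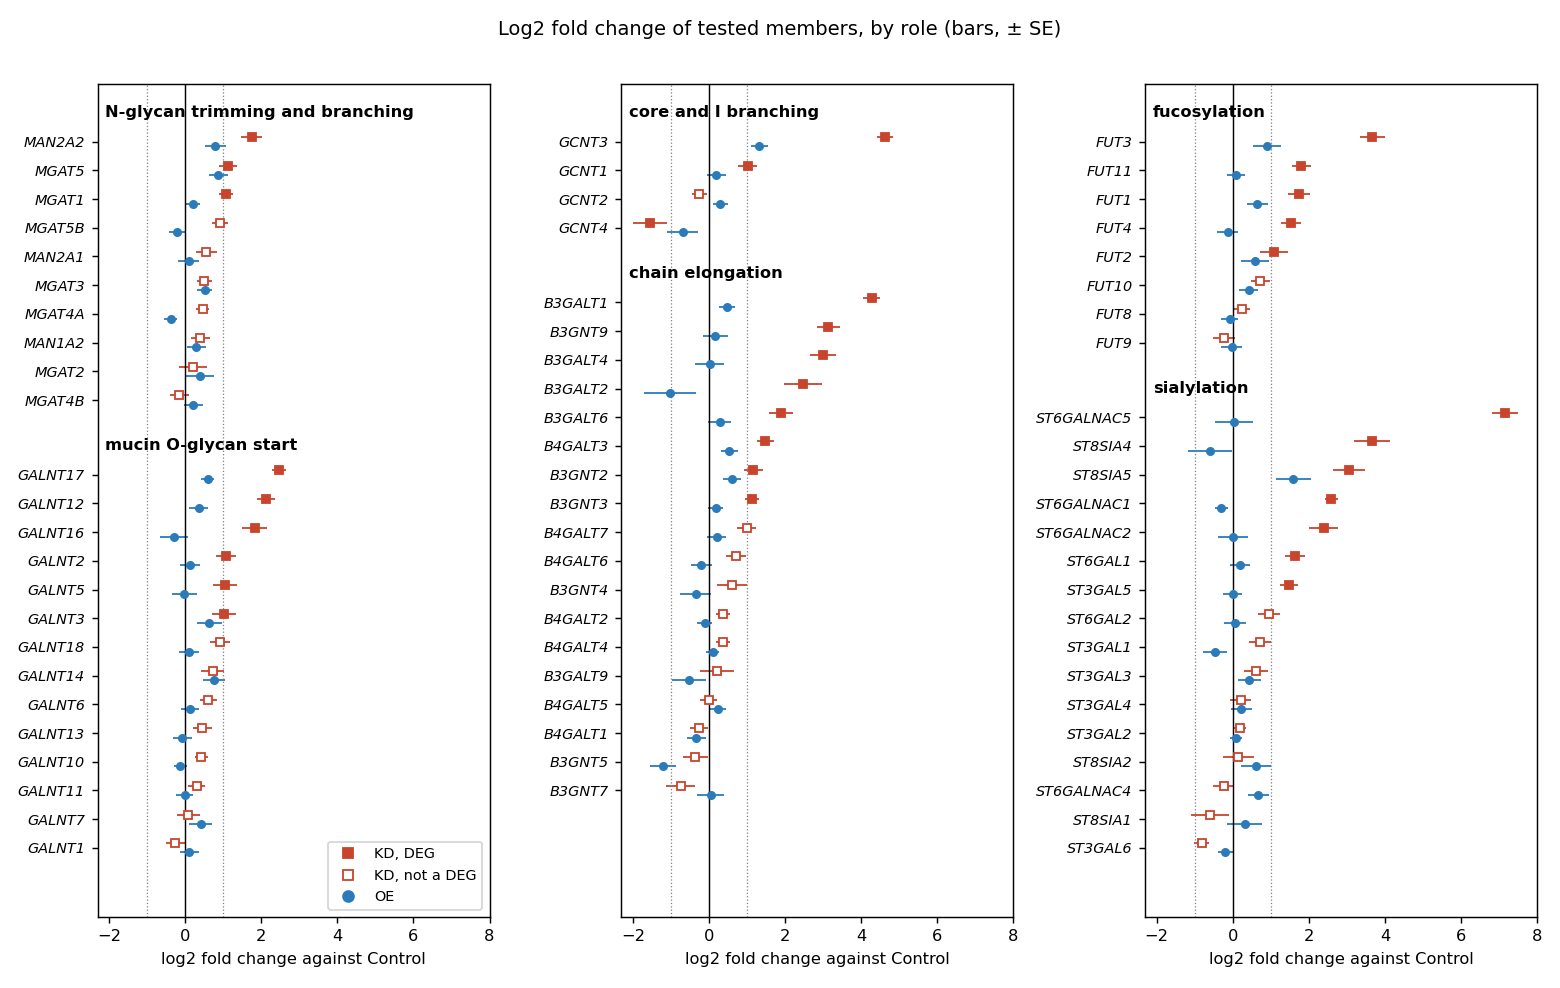
Log2 fold change against Control (horizontal axes, bars ± SE) of 70 tested members by role, in KD (squares, filled for DEGs) and OE (circles). *MAN1A1*, *PGAP4* and *ST6GALNAC3* have no fold change here, since they had at most 1 count in every Control and OE library. In each role 1 or more KD values lie above 1, and *GCNT4* lies at -1.55. The OE values reach from -1.21 (*B3GNT5*) to 1.59 (*ST8SIA5*), and both comparisons share the Control libraries.

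**Figure D4:**
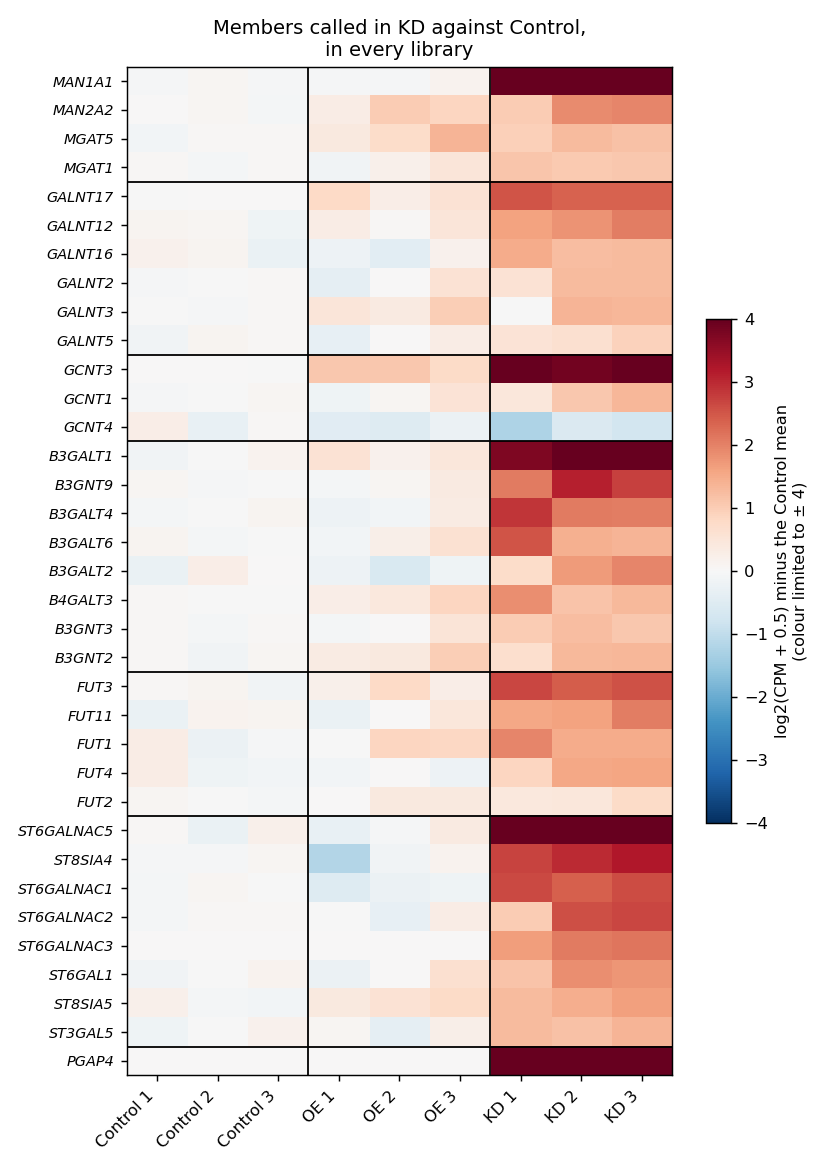
Each of the 35 members that were DEGs between KD and Control (rows, grouped by role) in each of the 9 libraries (columns), as log2(CPM + 0.5) minus the mean of the Control libraries, with the colour limited to ± 4. The 3 KD columns are red in 33 rows. *GCNT4* is blue in all of them, and for *GALNT3* KD replicate 1 has no colour (-0.01) while the other KD libraries are red.

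The comparison of OE with Control asks what raised *CTCFL* does. In the fit of all 9 libraries 1 member passed, *GCNT3*, which was also a DEG. Of all genes tested, 1.37% were DEGs higher in OE and 0.702% lower. By the adjusted p alone 1.99% passed as higher and 1.16% as lower. With edgeR on the 6 libraries compared further members passed as higher below 2-fold, among them *MGAT3* (adjusted p = 0.0146), *MAN2A2* (0.0453), *GALNT17* (0.0476) and *MGAT5* (0.0484). DEGs made up 4.88% of all genes in that fit and 2.07% in the fit of all 9 libraries. *GCNT3* went from 0.884 ± 0.0214 to 2.22 ± 0.327 CPM, at a log2 fold change of 1.33 (SE 0.22, adjusted p = 0.0214). All 3 OE libraries held more than each Control library. It did not pass without Control replicate 1 (adjusted p = 0.144), Control replicate 2 (0.149), Control replicate 3 (0.150) or OE replicate 2 (0.105), at log2 fold changes of 1.27 to 1.33. The level of *GCNT3* in KD, as given above, was higher than in OE, with a log2 fold change of 3.29 between them (adjusted p = 3.86e-06).

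With edgeR on the 6 libraries compared, *B3GNT5* (log2 fold change -1.18, adjusted p = 0.0144) and *MGAT4A* (-0.34, adjusted p = 0.0809) passed as lower in OE. In the edgeR fit of all 9 libraries no member did. At an unadjusted p under 0.05, 12 members were higher (16.4%) and 1 was lower (1.37%), beside 11.0% and 6.72% of all genes tested. DESeq2 on all 9 libraries passed 3 as higher (4.11%) and 1 as lower (1.37%), beside 5.66% and 2.89%. On the 6 libraries compared DESeq2 passed more members, among them *MGAT3* (0.56, adjusted p = 1.59e-05) as higher and *MGAT4A* (-0.34, adjusted p = 0.0583) as lower. The share of all genes that passed there was not counted. The one lower member by the unadjusted p and in DESeq2 on all 9 libraries was *B3GNT5*, which starts the lacto-series of glycolipids. Its counts were 287, 342 and 262 in Control and 113, 93 and 125 in OE, with no overlap, at a log2 fold change of -1.21 (SE 0.34, adjusted p = 0.112). *ST8SIA5* had a log2 fold change of 1.59 (SE 0.46, adjusted p = 0.123) on 8 to 10 counts in OE, and *MGAT5* one of 0.88 (SE 0.24, adjusted p = 0.109). All 3 OE libraries lay above all Control libraries in 16 tested members (21.9%) and below them in 3 (4.11%), beside 16.3% and 20.8% of all genes tested. The median log2 fold change of the tested members was 0.12. *MAN1A1*, *PGAP4* and *ST6GALNAC3*, the tested members at or near 0 outside KD, were at 0 or 1 count in each OE library.

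Between KD and OE directly, 26 tested members were DEGs higher in KD (35.6%), beside 10.6% of all genes tested, with a median log2 fold change of 0.83. Without the 7 members tested only through KD, 19 of 66 were (28.8%). None was a DEG lower in KD by edgeR's quasi-likelihood test, beside 6.42% of all genes tested, although other edgeR fits gave 1 or 2. By the adjusted p alone 2 members passed as lower, beside 11.5% of all genes tested. *ST6GALNAC4*, another enzyme of the ST6GALNAC family, had 13.1 ± 4.24 CPM in OE and 7.01 ± 2.37 in KD, and the libraries overlap. Its log2 fold change of -0.91 (SE 0.28, adjusted p = 0.0329) lay past 2-fold with length and GC offsets (-1.09), with the replicate block added (-1.07) and without OE replicate 1 (-1.09) or KD replicate 1 (-1.21). In the other 7 fits that left out 1 library *ST6GALNAC4* did not pass (adjusted p 0.0512 to 0.118). *ST3GAL6* passed with -0.63 (SE 0.21, adjusted p = 0.0455), but not with the replicate block (adjusted p = 0.0737) or in 7 of the 9 fits that left out 1 library (0.0781 to 0.133). *B3GNT7* (-1.13, without OE replicate 1) and *ST8SIA1* (-1.42, without KD replicate 1) were lower DEGs in 1 fit each. At an unadjusted p under 0.05, 3 members were lower at any fold, beside 17.9% of all genes tested. DESeq2 on all 9 libraries also passed 3, beside 15.1%. Sialylation gave 9 of the 26, among them *ST6GALNAC1* (log2 fold change 2.90), *ST8SIA4* (4.24), *ST6GALNAC2* (2.39) and *ST6GAL1* (1.43). Without the members tested only through KD, sialylation gave 6 DEGs of 14, chain elongation 4 of 17, fucosylation 3 of 7 and N-glycan trimming and branching 1 of 10, while *PGAP4*, alone in its group, is such a member. These libraries exclude the Control cells, but KD and OE also came from separate experiments. Which of the 2 conditions moved cannot be read from this comparison alone.

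Levels between genes were compared per kb of the canonical transcript. In Control, the highest was *B4GALT1* with 83.3 CPM per kb, followed by *B4GALT5* (73.3), *MGAT4B* (65.0), *GALNT2* (39.9) and *GALNT3* (36.8). *GALNT7* (28.6), *B4GALT4* (26.8), *B4GALT2* (23.5), *FUT8* (21.4) and *B3GALT6* (20.4) completed the first 10. In KD, *GALNT2* (83.9) was first, *B3GALT6* (75.2) second and *GALNT3* (74.7) the third, with *B4GALT5* at 73.0 and *B4GALT1* at 69.4. The KD values of these 5 lie within each other's spread, so their order is not resolved. The members that rose from near 0 stayed well below them, as *ST6GALNAC5* with 40.5 CPM on a transcript of 5547 bases did. In every Control library, 58 members had at least 1 CPM, as in every OE library, against 69 in every KD library. The same count over all genes was not made, so nothing particular to the members can be read from it. *MAN1A1*, *PGAP4* and *ST6GALNAC5*, which were tested only through KD, are among the 69.

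**Figure D5:**
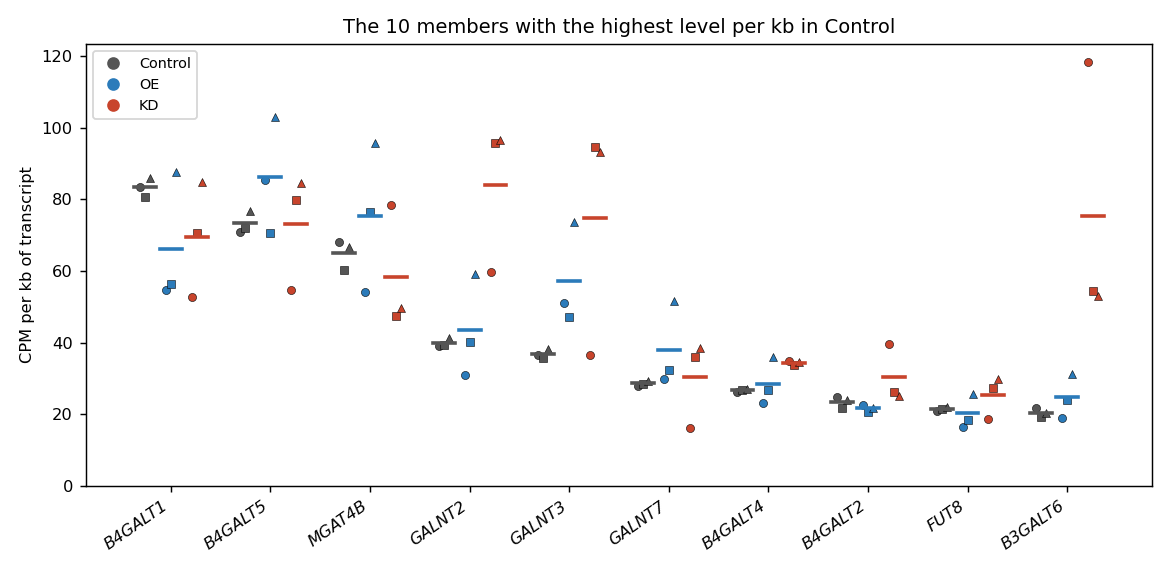
CPM per kb of transcript (vertical axis) in each library for the 10 members with the highest level in Control, with horizontal lines at the group means (n = 3). *B4GALT1* and *B4GALT5* lead in Control, and *GALNT2*, *GALNT3* and *B3GALT6* reach similar values in KD, with KD replicate 1 (circles) apart from the other KD libraries for several genes.

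Lists of genes around this pathway were read in the same fit. In the endoplasmic reticulum, N-glycans are assembled, transferred to proteins and first trimmed by 25 listed genes, all tested, of which 18 passed as higher in KD, 12 of them DEGs, with a median log2 fold change of 0.98. These are 72.0% and 48.0%, beside 21.4% and 15.3% of all genes tested. *MOGS*, the first glucosidase, went from 53.0 ± 1.69 to 182 ± 15.3 CPM, at a log2 fold change of 1.78 (adjusted p = 0.000322). *DPAGT1*, which starts the lipid-linked precursor, had 1.56 (adjusted p = 0.00157), and *RPN2*, a subunit of the oligosaccharyltransferase, 1.51 (adjusted p = 0.00199). Of 20 other Golgi glycosyltransferases, 17 were tested, 9 passed as higher (52.9%) and 8 were DEGs (47.1%), with a median of 0.82. *C1GALT1* and its chaperone *C1GALT1C1*, which make the core 1 structure of O-glycans, had log2 fold changes of 1.25 (adjusted p = 0.00253) and 1.12 (adjusted p = 0.00577).

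Of 27 genes that supply nucleotide sugars, all tested, 5 passed as higher in KD (18.5%) and 9 as lower (33.3%), with a median log2 fold change of 0.055. Among all genes tested, 21.4% passed as higher and 16.8% as lower, with a median of 0.077. The 5 that rose included the Golgi carriers of CMP-sialic acid, *SLC35A1* (log2 fold change 1.75, adjusted p = 0.000750), and of UDP-galactose, *SLC35A2* (1.14, adjusted p = 0.00654). The 9 that fell included *GFPT1*, *GNPNAT1*, *PGM3* and *UAP1*, the enzymes that make UDP-N-acetylglucosamine from fructose phosphate, with log2 fold changes of -0.71, -0.93, -0.73 and -0.83. Of 14 genes of Golgi structure and ion balance, 1 passed as higher and 1 as lower (*COG1*, 0.62, and *COG6*, -0.48). Of 6 sialidases and fucosidases, 4 were tested and 2 were DEGs, *FUCA1* (1.67) and *NEU1* (1.41).

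Of 14 mucin-type acceptors, 6 were tested, 3 were DEGs higher in KD and 1 lower, beside 15.3% and 7.94% of all genes tested. *MUC16* went from 222 ± 52.7 to 1589 ± 515 CPM (log2 fold change 2.84, adjusted p = 0.000149), *MUC20* had 3.27 and *MUC3A* -1.32 (adjusted p = 0.0218). *MUC15* passed in both comparisons, with a log2 fold change of 4.39 in KD and of 1.54 in OE (adjusted p = 0.0114), as *GCNT3* did, and both comparisons share the Control libraries.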

How the data were processed

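RNA-seq libraries of OVCAR3 cells were sequenced by the study as Control, CTCFL-OE and CTCFL-KD, with 3 biological replicates each, pooled from technical replicates according to the series' design text. The authors trimmed reads with Trimmomatic, used STAR to align them to GRCh38 and featureCounts to count them per gene, while the labels' processing notes also list kallisto. The deposited values are raw counts per gene, not normalized, and the file of each library equalled its column of the matrix. Which annotation was used, whether strand was considered and how multi-mapping reads were handled is not given in the sources used here, so counts of overlapping genes and close paralogs are uncertain.

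Gene symbols, positions and transcript lengths came from GENCODE release 44, which named 60463 of the 60660 identifiers. The counts of all 9 libraries entered 1 model of edgeR 4.0.16 (R 4.3.3), with filterByExpr, TMM and a robust glmQLFit and with condition as its sole term. SE was taken as |log2 fold change| over the root of the F statistic. Tables and figures used Python 3.11.15, pandas 2.3.3, scipy 1.17.1 and matplotlib 3.10.9. A count of 0 allows 3 counts, or 0.116 to 0.270 CPM by library. Such limits and the exact intervals cover counting error only, since reads carried no molecular identifiers.

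The members, gene lists, role groups and tests were chosen with earlier results of these data known. Members named with values are *MAN1A1* and *GCNT3*, the DEGs in KD or OE (at most 30, by fold change), those that passed in OE, the 10 highest per kb in Control and the highest of each role group. Others, among them *FUT2*, *GALNT5*, *B3GALT5*, *B3GNT5* and *ST3GAL6*, were named after their values were seen, as were the pathway genes given as examples. The DEG thresholds follow the study's methods, which used DESeq2, here an alternative (1.42.0).

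Replicate numbers were checked for pairing. Over 15371 genes, KD and Control libraries of the same number deviated together from the means of their groups, with correlations of 0.251, 0.151 and 0.173 (0.107, 0.118 and 0.083 once trends with length and GC content were removed). KD came from separate experiments, and no source says what a number shares. By the first values the numbers were taken to pair these libraries, and a fit blocked on them is given where it changes a call. Same-numbered OE and Control libraries correlated by -0.032, 0.188 and -0.047 and were not taken as paired. The alternatives were DESeq2, edgeR on the libraries compared, RLE and upper-quartile scaling, other low-count filters, robust estimation off, offsets for length and GC content, the replicate block, glmTreat and each library left out in turn.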

Additional observations from a re-analysis of the deposited data

How the results depend on the processing

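Over 21 alternatives, no member that passed in KD or OE reversed its direction. Of the 35 DEGs between KD and Control, 21 were DEGs in every alternative in which they were tested, and the count lay between 24 and 37 except with glmTreat, which tests against a 2-fold change and left 21. It was 31 to 37 with 1 library left out, 32 with the replicate block and 24 with at least 10 counts in every library. The paired fit with the replicate block changed the calls of *FUT2*, *GALNT3* and *GCNT1* as DEGs in KD against Control. In KD against OE it ended the pass below 2-fold of *B4GALT7* (adjusted p = 0.0628) and *ST3GAL6* (0.0737). It changed no other call in the 3 comparisons. With length and GC offsets *B3GNT3*, *GALNT2* and *MGAT1* were no longer DEGs, with the block added *FUT2* and *GCNT4* were not either, and without a low-count filter *FUT2*, *GALNT3*, *GALNT5* and *GCNT1* were not. Gained as DEGs in KD against Control were *B4GALT6* (log2 fold change 1.06 and 1.07) and *ST6GAL2* (1.03 and 1.01) with the offsets, without and with the block, *ST6GAL2* also without KD replicate 1 (1.25), and *B4GALT7* in 4 fits (1.0 to 1.16), with upper-quartile scaling or without Control replicate 1 or KD replicate 2 or 3. Members not tested in the fit above also became DEGs. This was so without a low-count filter (33 DEGs, 31 shared with the 35), OE replicate 2 or 3 (35, 34 shared) or KD replicate 1 (37, 35 shared). With the offsets *MAN1A2*, *MAN2A1*, *MGAT4A*, *GALNT13* and *B4GALT4* also passed as higher in KD than in Control. *MGAT4B* and *ST6GALNAC4* passed as lower, and all of these were below 2-fold. Other members passed below 2-fold in some alternatives, among them *GALNT6*, *GALNT10*, *GALNT14*, *MGAT3* and *ST3GAL1* as higher and *B3GNT7* as lower. The single DEG in OE became 2 with DESeq2 on 9 or on 6 libraries, with edgeR on 6 libraries, without a low-count filter and with the replicate block plus length and GC offsets, where *B3GNT5* was added. It became 3 with length and GC offsets alone (*B3GNT5* and *ST8SIA5*) and 0 with glmTreat. With 1 library left out it ranged from 0 to 3, with 0 without any 1 Control library or OE replicate 2 and 3 without OE replicate 1 or KD replicate 1. The 26 DEGs between KD and OE became 17 with at least 10 counts in every library (also when only such members were counted in the same fit, an alternative chosen after seeing the data), where fewer members were tested, and 17 with glmTreat, and 25 to 36 with 1 library left out (36 without KD replicate 1). Why the other counts moved was not tested. The DEGs *FUT2*, *GALNT5*, *GCNT4*, *ST6GALNAC3* and *ST8SIA5* rested on at most 35 counts in any Control or KD library, and the part of depth was not tested.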
